A study of Mus musculus with 4 samples.

Results

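Chromatin accessibility was described at the genes of the Wnt pathway that encode its ligands, receptors, secreted inhibitors, Axin scaffolds and TCF7L transcription factors, in single nuclei of mouse inguinal white adipose tissue (iWAT). Genes were taken by symbol from the protein-coding genes of the GENCODE M21 annotation (mm10): every symbol made of Wnt, Fzd, Sfrp, Dkk or Axin and a number, plus Lrp5, Lrp6, Tcf7l1 and Tcf7l2. This gave 43 of 21951 genes, and 41 of them carried at least 1 of the 189598 peaks on the gene body or the 2000 bases upstream. Dkk1 and Wnt7a carried none. The 41 genes held 277 peaks, of which 183 were intronic, 62 overlapped the 2000 bases on either side of the gene start and 83 belonged to the pair of TCF7L genes. By role there were 19 ligands, 12 receptors and co-receptors, 8 secreted inhibitors, 2 Axin genes and 2 TCF7L genes.

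Wnt proteins are secreted lipid-modified ligands that bind Frizzled receptors (Fzd) and the co-receptors Lrp5 and Lrp6. In the canonical branch this stops the destruction complex, built on Axin, from degrading beta-catenin, which then acts on target genes through TCF/LEF factors such as Tcf7l1 and Tcf7l2, whereas ligands such as Wnt5a and Wnt11 are best known for branches that do not need beta-catenin. Sfrp proteins bind the ligands and most Dkk proteins block the co-receptors. Canonical Wnt signalling, with Wnt10b as its best studied ligand in fat, is known to hold back the formation of adipocytes from progenitors, and Axin2 is a widely used target gene of the pathway that also feeds back on it.

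snATAC-seq reads open chromatin through a transposase that inserts adapters into accessible DNA, and combinatorial barcodes assign the reads to nuclei. All animals were male C57BL/6 mice of 8 weeks with no transgene or mutation named in the labels. The 7 groups, with 3 mice each, were day0RT (22 °C, before any intervention), day1C, day3C and day7C (cold, 6.5 °C, for 1, 3 or 7 days) and day1CL, day3CL and day7CL (CL-316,243, an agonist of the β3-adrenergic receptor, at 1 mg/kg for 1, 3 or 7 days). All 6 treated groups were compared with the same 3 day0RT mice. The 21 mice gave 32552 nuclei, 1111 to 2021 a mouse, and 1340376 to 6916698 counts a mouse, a count being a nucleus with reads in a peak. Group medians ran from 762 counts a nucleus in day1CL to 1584.5 in day3C.

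The 12 cell types are those the authors annotated: white adipocytes, beige adipocytes, adipocyte progenitors APC1 and APC2, vascular endothelial cells (VEC), a cluster annotated as vascular smooth muscle (VSMC), macrophages, dendritic cells, B cells, and clusters of T, CD4 T and CD8 T cells. They were drawn from the same matrix, so p-values between cell types are not independent of the clustering. The summed skeletal muscle markers stood at 1436 counts per 1000000 (CPM) in the VSMC cluster and the smooth muscle markers were higher in APC2 (466 CPM) than there (228 CPM), so values from this cluster carry its annotated name only. Barcode sequences that occurred in more than 1 mouse covered 26.8% of nuclei. They joined mice of the same treatment and number on different days, and 21.2% of the pairs had the same cell type, where the cell type shares alone give 20.7%.

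Of the peaks on these genes, the largest differences between beige and white adipocytes lay away from the gene start, in introns or, for Lrp6, over an intron and a non-coding exon. The central 300 bases of 4 of them are shown because the results below turn on them: the pair that was more open in beige nuclei (Wnt5a and Axin2) and, among those less open, the ones with the largest difference in a receptor gene (Lrp6) and in Tcf7l2. Sequences are from mm10, plus strand, 5′ to 3′. Capitals mark the TCF/LEF core motif, searched as CTTTGAT and CTTTGAA on both strands; the windows without capitals do not hold these letters.
Wnt5a intron (gene on the plus strand), chr14:28521205-28521504: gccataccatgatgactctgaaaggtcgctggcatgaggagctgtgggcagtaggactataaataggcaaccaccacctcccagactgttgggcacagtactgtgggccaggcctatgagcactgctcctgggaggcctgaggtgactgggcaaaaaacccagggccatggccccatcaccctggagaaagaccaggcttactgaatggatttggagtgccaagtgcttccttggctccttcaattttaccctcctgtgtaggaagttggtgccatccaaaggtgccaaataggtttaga
Axin2 intron (gene on the plus strand), chr11:108936315-108936614: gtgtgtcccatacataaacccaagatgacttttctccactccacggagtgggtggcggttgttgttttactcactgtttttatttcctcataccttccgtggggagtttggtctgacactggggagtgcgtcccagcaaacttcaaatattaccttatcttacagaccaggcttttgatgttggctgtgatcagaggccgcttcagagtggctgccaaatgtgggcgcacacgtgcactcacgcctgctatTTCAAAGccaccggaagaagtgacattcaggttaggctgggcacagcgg
Lrp6 intron (gene on the minus strand), chr6:134461196-134461495: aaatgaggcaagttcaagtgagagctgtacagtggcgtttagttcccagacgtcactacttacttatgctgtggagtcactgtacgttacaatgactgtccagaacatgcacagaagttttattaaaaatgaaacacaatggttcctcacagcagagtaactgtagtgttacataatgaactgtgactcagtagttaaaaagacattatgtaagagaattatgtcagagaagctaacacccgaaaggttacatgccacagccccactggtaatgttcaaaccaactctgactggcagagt
Tcf7l2 intron (gene on the plus strand), chr19:55807007-55807306: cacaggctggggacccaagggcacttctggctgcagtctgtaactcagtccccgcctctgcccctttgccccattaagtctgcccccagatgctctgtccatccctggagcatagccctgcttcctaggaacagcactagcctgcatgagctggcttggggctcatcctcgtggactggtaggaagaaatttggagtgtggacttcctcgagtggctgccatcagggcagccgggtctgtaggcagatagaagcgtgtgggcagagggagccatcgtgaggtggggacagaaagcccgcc
The Axin2 window held a core on the minus strand, starting at base 252. Over all members 25 of 277 peaks held a core in their central 300 bases (9.03%), against 11.1% of all 189598 peaks. A match is a stretch of letters, not a measured binding site.

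Accessibility of these genes was highest outside the lymphocytes for most of the list. Summed over mice, 20 of the 41 genes reached 50 CPM (per 1000000 gene counts of a cell type) in at least 1 cell type, and the remaining 21 peaked between 4.66 and 48.7 CPM. CPM sum all peaks of a gene and are not scaled to their length, so they are best read across cell types within a gene. The cell type with the highest level was VSMC for 10 genes, APC2 for 9, APC1 for 7, VEC for 4, beige adipocytes for 3, white adipocytes for 2 and the T cluster for 2. White plus beige adipocytes stood over 2-fold above the pooled B and T lymphocytes for 30 of the 40 genes with enough counts for a ratio, over 10-fold for 12, and below them for 5, with a median ratio of 4.13. The same ratio was not taken over all genes, so these counts do not set the list apart from other genes. These levels describe clusters that were defined on the same matrix and were not tested. For only 1 of the 20 genes, Wnt9a, did the highest cell type exceed the next by more than the larger of their SDs between mice.

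**Figure D1:**
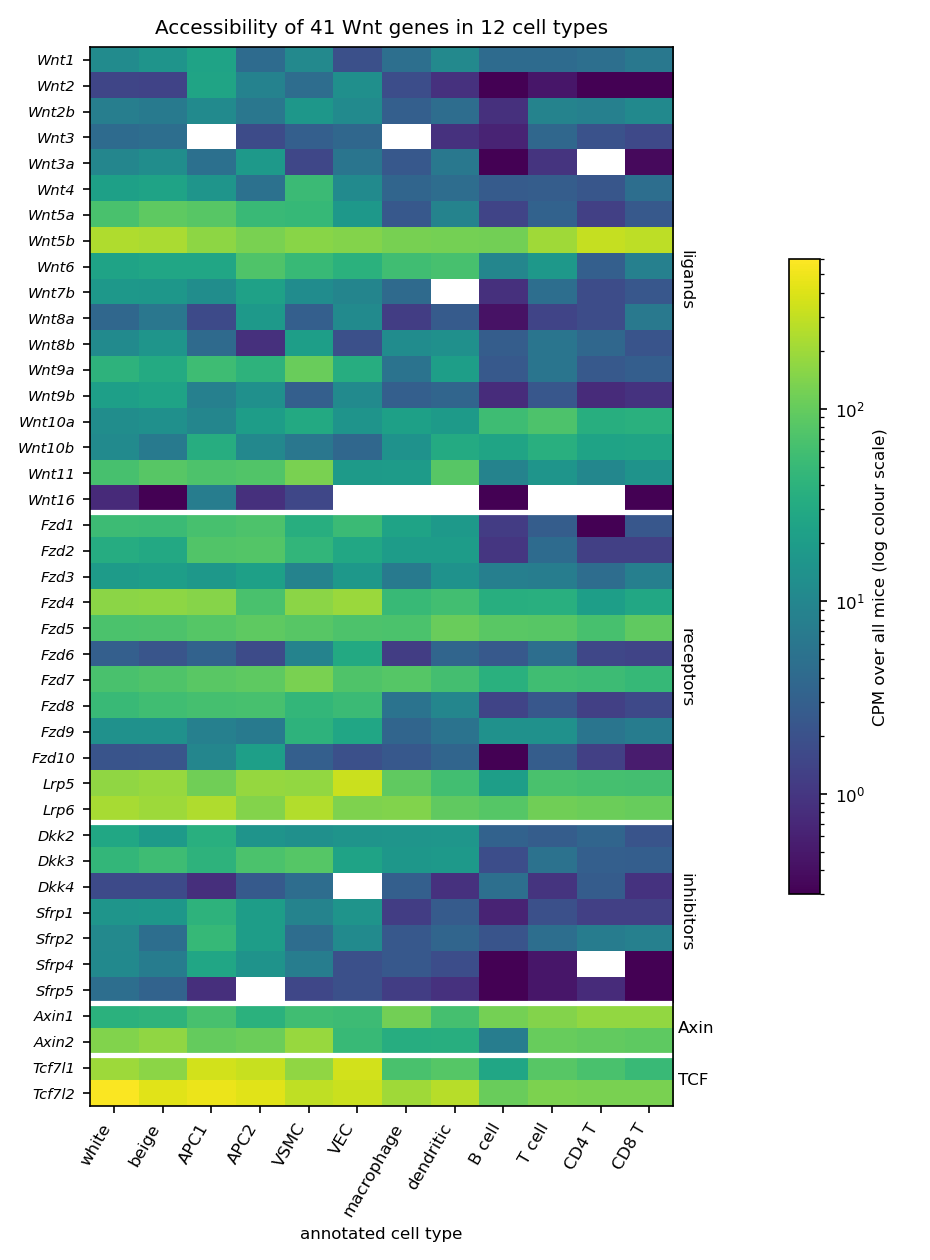
Level of each of the 41 genes with a peak (rows, grouped by role) in the 12 annotated cell types (columns), as CPM over all mice on a log colour scale. White cells had 0 counts and levels under 0.3 share the darkest colour; the rows of Tcf7l2, Tcf7l1, Lrp5, Lrp6, Fzd4 and Wnt5b stay bright over most columns, and most ligands are dark in B and T cells.

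Among the ligands, Wnt5a, which acts mainly without beta-catenin, stood at 90.3 CPM in beige adipocytes, 83.3 in APC1 and 67.4 in white adipocytes, and at 1.26 to 3.32 CPM in the 4 lymphocyte clusters. Between mice the levels were 87.5 ± 23.6 CPM in beige (SD, n = 19), 70.7 ± 43.6 in APC1 (n = 20) and 66.3 ± 14.2 in white nuclei (n = 21), so that neighbours in this order differed by less than their SD. Wnt11 was at 131 CPM in VSMC, 84.5 in beige adipocytes, 84.4 in dendritic cells and 65.5 in white adipocytes. Wnt9a was at 105 CPM in VSMC and 56.9 in APC1 against 41.3 in white adipocytes, and Wnt4 was at 53.2 CPM in VSMC against 25.0 in beige and 22.4 in white adipocytes. Wnt6 was highest in APC2 (73.4 CPM), dendritic cells (65.6) and macrophages (59.0), and was 24.5 CPM in white adipocytes.

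Wnt5b and Wnt10a stood out among the ligands for their levels in some of the lymphocyte clusters. Wnt5b was at 309 CPM in CD4 T cells (305 ± 30.3, n = 20) and 282 in CD8 T cells, followed by 241 in white (253 ± 36.8, n = 21) and 231 in beige adipocytes. It was lowest of the 12 cell types in B cells (119 CPM), and the pooled lymphocytes (191 CPM) lay below adipocytes (239 CPM). Of its counts, 32.9% came from a peak shared with Fbxl14. Wnt10a was at 71.5 CPM in T cells and 57.3 in B cells, against 12.4 in white adipocytes, and adipocytes stood at 0.248 of the lymphocyte level. Wnt10b, the ligand best known for holding back adipogenesis, peaked at 36.0 CPM in T cells, with 33.8 in APC1 and 31.4 in dendritic cells next. Over APC1 plus APC2 it was 22.4 CPM, and over white plus beige adipocytes 10.6 CPM. The adipocyte value was 0.408 of the lymphocyte level. The other 3 genes that were lower in adipocytes were Axin1 (0.269), Dkk4 (0.497) and Fzd5 (0.823).

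The receptors differed in how far they were open in lymphocytes. Fzd1, Fzd2 and Fzd8 peaked in APC2 (72.5, 79.5 and 65.6 CPM) with APC1 next, and were at 0.253 to 4.26 CPM in the 4 lymphocyte clusters. Fzd5 ran from 66.5 CPM in CD4 T cells to 107 in dendritic cells, and Fzd7 from 37.9 CPM in B cells to 131 in VSMC. Fzd4 was at 189.7 CPM in VEC (197 ± 139, n = 15), 166 in beige and 158 in white adipocytes, and 67.4 in APC2, but 80.0% of its counts came from 2 peaks shared with Tmem135. Of the co-receptors, Lrp5 was at 324 CPM in VEC (356 ± 218, n = 15), then 184 in beige adipocytes, 179 in APC2 and 171 in white adipocytes. Lrp6 was at 252 CPM in VSMC, 246 in APC1 and 219.7 in white adipocytes, and at 80.8 CPM in B cells.

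Of the secreted inhibitors only Dkk3, a divergent member of the Dkk family, reached 50 CPM, with 80.5 in VSMC, 70.0 in APC2 and 56.1 in beige adipocytes. The Sfrp genes were lower in summed CPM: Sfrp2, Sfrp1 and Sfrp4 peaked in APC1 at 48.7, 40.4 and 27.2 CPM, and Sfrp5 in white adipocytes at 4.66 CPM. These sums are not scaled to peak length. Dkk3 held 4055 bases of peak, and Sfrp2, Sfrp1, Sfrp4 and Sfrp5 held 1223, 1746, 771 and 431. Dkk2, a blocker of the co-receptors, peaked in APC1 at 36.3 CPM.

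The genes that act inside the cell split by cell type. Axin1 was highest in CD8 and CD4 T cells (177 CPM in each) and was 38.2 CPM in white adipocytes, whereas Axin2 was at 184 CPM in VSMC (171 ± 41.1, n = 10), 169 in beige (169 ± 29.2, n = 19) and 141 in white adipocytes (137 ± 19.6, n = 21), and at 7.47 CPM in B cells. Tcf7l1, mostly known as a repressor among the TCF factors, was at 360.2 CPM in VEC, 355 in APC1 and 320.4 in APC2, and at 196 in white adipocytes. Tcf7l2, a main partner of beta-catenin in adipocytes, was at 579 CPM in white adipocytes (589 ± 66.2, n = 21, from 11056 counts), 478 in APC1 (498 ± 111, n = 20), 431 in APC2 and 422 in beige adipocytes (425 ± 95.8, n = 19), down to 105 CPM in B cells (106 ± 16.1, n = 21).

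Beige and white adipocytes were compared first, since beige nuclei are the thermogenic population of the study. Tcf7l2 and Tcf7l1, both TCF7L genes, were lower in beige nuclei, while Axin2 and the ligands Wnt5a and Wnt11 were higher, with differences of 0.27 to 0.48 on the log2 scale. In the mean over 19 mice with at least 10 nuclei of each type, Tcf7l2 was 425 ± 95.8 CPM in beige nuclei against 589 ± 66.2 in the white nuclei of 21 mice, and beige was the higher in 1 of 19 mice. Of the 43 genes, 27 passed the filter on low counts, 3 were higher and 4 lower at an adjusted p under 0.05 (edgeR, Benjamini-Hochberg over 12770 genes), which is 25.9% of those tested. Over all genes tested 28.8% passed, 13.6% higher and 15.2% lower, so the share on this list was near that background. The median difference was 0.08 for the 27 genes and 0.0054 for all genes tested.

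By mouse, Tcf7l2 ran from 219 through a median of 418 to 633 CPM in beige nuclei and from 472 through 612 to 669 in white nuclei (log2 difference -0.48, SE 0.06, adjusted p = 8.12e-11, edgeR). The ranges overlapped. Tcf7l1 had beige values of 62.1, 159.6 and 239 CPM as its lowest, median and highest, against 134, 191 and 244 in white nuclei (-0.27, SE 0.08, adjusted p = 0.00356), with beige the higher in 2 of 19 mice. Axin2, the feedback scaffold, was at 109, 171 and 212 CPM in beige and 102, 136 and 172 in white nuclei (0.29, SE 0.08, adjusted p = 0.00146). It was higher in beige nuclei in 14 of 19 mice.

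Wnt5a was at 38.3, 88.1 and 141 CPM (lowest, median and highest mouse) in beige nuclei and 29.0, 66.8 and 102 in white nuclei, a difference of 0.40 (SE 0.10, adjusted p = 4.2e-04) that was seen in 16 of 19 mice. Wnt11 was at 36.9, 83.8 and 148 CPM in beige and 50.8, 68.3 and 116 in white nuclei (0.34, SE 0.10, adjusted p = 0.00341), higher in beige in 15 of 19 mice. On the lower side, the co-receptor blocker Dkk2 was at 18.2 ± 15.7 CPM in beige against 26.9 ± 7.23 in white nuclei (-0.63, SE 0.19, adjusted p = 0.00607, edgeR). Several beige libraries held no Dkk2 count. Beige was the higher in 2 of 3 day0RT mice, in 1 of 3 in both day1C and day7CL, and in no mouse of the other groups. The ligand Wnt9a, at 32.9 ± 20.0 against 39.7 ± 6.35 CPM, differed by -0.36 (SE 0.14, adjusted p = 0.0416), and passed in 11 of 21 fits that each left out 1 mouse and not with DESeq2 (adjusted p = 0.077). In every gene the beige and white ranges overlapped.

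**Figure D2:**
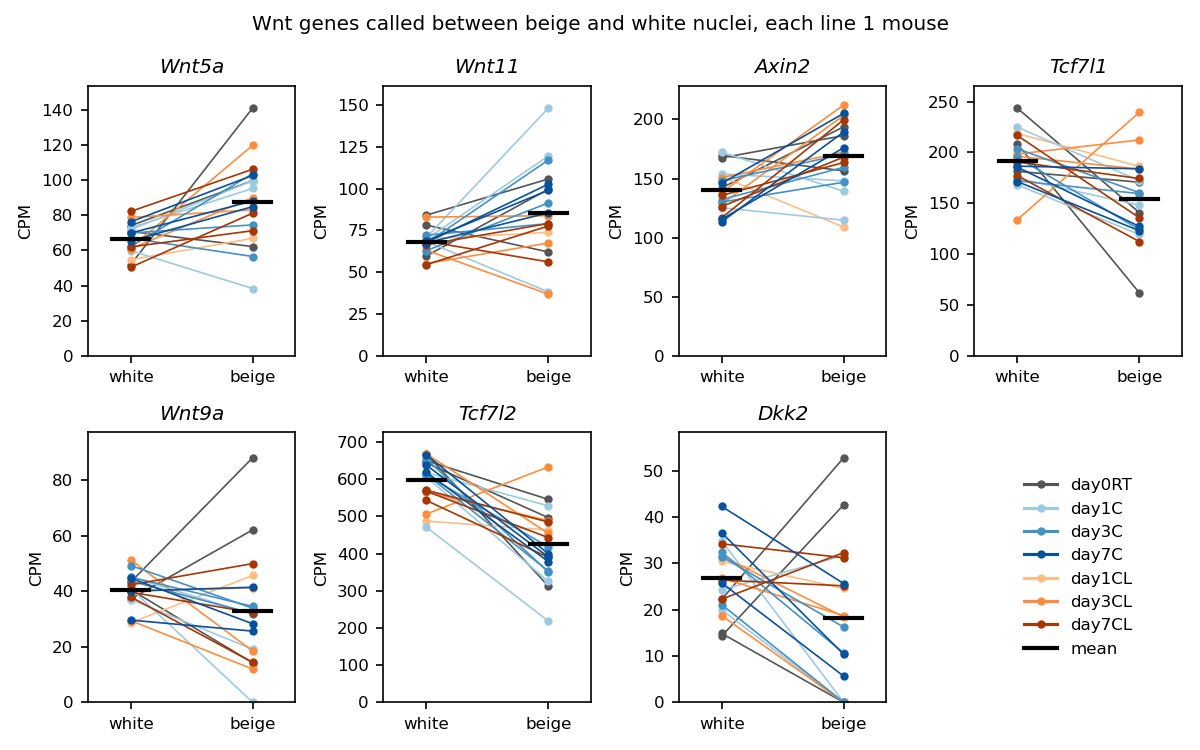
CPM of the 7 genes that passed the test between beige and white nuclei, with 1 line for each of the 19 mice that had both, coloured by group, and black bars for the means over these 19 mice. Tcf7l2 falls from white to beige in 18 of 19 mice and Wnt5a rises in 16 of 19.

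With the sums limited to peaks close to the gene start, Tcf7l2 alone passed (1 gene in place of 7), Wnt5a differed by 0.07 (adjusted p = 0.815) and Axin2 turned to -0.12 (adjusted p = 0.668). The summed APC1 markers were higher in beige nuclei (475.8 to 682.8 CPM over mice and groups) than in white nuclei (379.4 to 477.8). Up to 3 of the 5 APC1 markers were at 0 in a beige library and up to 4 in a white library. Dpp4 of this list was highest in CD8 T cells among the cell types, so the sum does not mark APC1 alone. The part of this list in these gene differences was not tested.

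Resolved by peak, 1 intronic peak each passed in Wnt5a (3 of 6 peaks tested) and Axin2 (4 of 9), away from the gene start. The Wnt5a peak at chr14:28521070-28521638, centred 16604 bases from the start, had 19.8 ± 13.6 CPM (per 1000000 peak counts) in beige nuclei (n = 19) and 4.98 ± 2.86 in white nuclei (n = 21). The lowest, median and highest mice were 0, 20.8 and 47.6 in beige and 0, 4.70 and 9.53 in white nuclei, and beige was higher in 16 of 19 mice (log2 difference 1.67, SE 0.24, adjusted p = 2.15e-10, edgeR over 24854 peaks). The other tested Wnt5a peaks, both nearer the start, did not pass. Over the cell types this peak was at 19.7 CPM in beige adipocytes, 9.13 in VSMC and 5.79 in white adipocytes, and at 1.30 in APC1 and 0.673 in APC2.

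The Axin2 peak at chr11:108935999-108936930, which holds the core motif and lies 16115 bases from the start, had 30.6 ± 12.7 CPM in beige and 10.8 ± 4.73 in white nuclei. Its lowest, median and highest mice were 0, 30.9 and 48.6 in beige and 0, 9.99 and 18.3 in white nuclei. Beige was higher in 17 of 19 mice (1.09, SE 0.17, adjusted p = 3.7e-09). Among the cell types it was at 30.3 CPM in beige adipocytes, 22.2 in VSMC and 13.0 in white adipocytes, and at 3.24 CPM in APC1. Its mean over mice in APC2 was 11.7 ± 12.9 CPM (n = 19), near the 10.8 ± 4.73 of white nuclei. The summed skeletal muscle markers, which lead the VSMC cluster, ran over mice from 83.8 to 372.7 CPM in beige and from 127 to 222 in white nuclei. The highest beige value was that of a day0RT mouse. Summed over all mice, these markers were lower in beige (143 CPM) than in white nuclei (170 CPM). Their part in this peak was not tested.

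The peaks that were less open in beige nuclei belonged to Lrp6, Tcf7l1, Tcf7l2, Dkk3 and Wnt5b. With DESeq2 the 1 Wnt5b peak (adjusted p = 0.0707), the Tcf7l1 peak at the gene start (0.0811) and a Tcf7l2 peak 139117 bases from the start (0.0637) did not pass, and these were lost in 6, 10 and 2 of the 21 fits that each left out 1 mouse. The Lrp6 peak at chr6:134460889-134461801, 105620 bases into the gene, was at 0, 6.97 and 25.2 CPM (lowest, median and highest mouse) in beige and 14.8, 20.97 and 45.9 in white nuclei, and no mouse of 19 was higher in beige (-1.33, SE 0.20). This is the co-receptor gene whose summed level did not pass the test. A Tcf7l1 peak at chr6:72740581-72741566 was at 6.80 ± 7.51 against 16.0 ± 7.24 CPM (-1.26, SE 0.24). Of the 11 Tcf7l2 peaks tested, 10 had a negative difference and 5 passed, the largest at chr19:55806759-55807553 with 11.5 ± 12.003 against 17.6 ± 5.55 CPM (-1.19, SE 0.22) and the next at chr19:55876415-55877198 with 15.8 ± 11.1 against 28.1 ± 7.43 (-0.81, SE 0.17). The Dkk3 peak at chr7:112138267-112139336 differed by -0.80 (SE 0.19); the summed level of Dkk3 did not pass.

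In all, 53 of the 277 peaks passed the filter, 2 were higher and 10 lower in beige nuclei (22.6%), against 27.2% of the 24854 peaks tested, 12.8% higher and 14.4% lower. With the mouse as a block more peaks passed the filter (128 of these and 63686 in all). Of the 128, 27 were called, 4 higher and 23 lower, all 12 among them, against 24.5% of all peaks tested in that fit. The shares of all peaks by direction were not taken there, and the median difference over all peaks was negative, as given below. The split by direction therefore does not set these peaks apart from other peaks. In the fit without the block, the count was 7 without day3C mouse 1 and 20 without day1CL mouse 3.

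**Figure D3:**
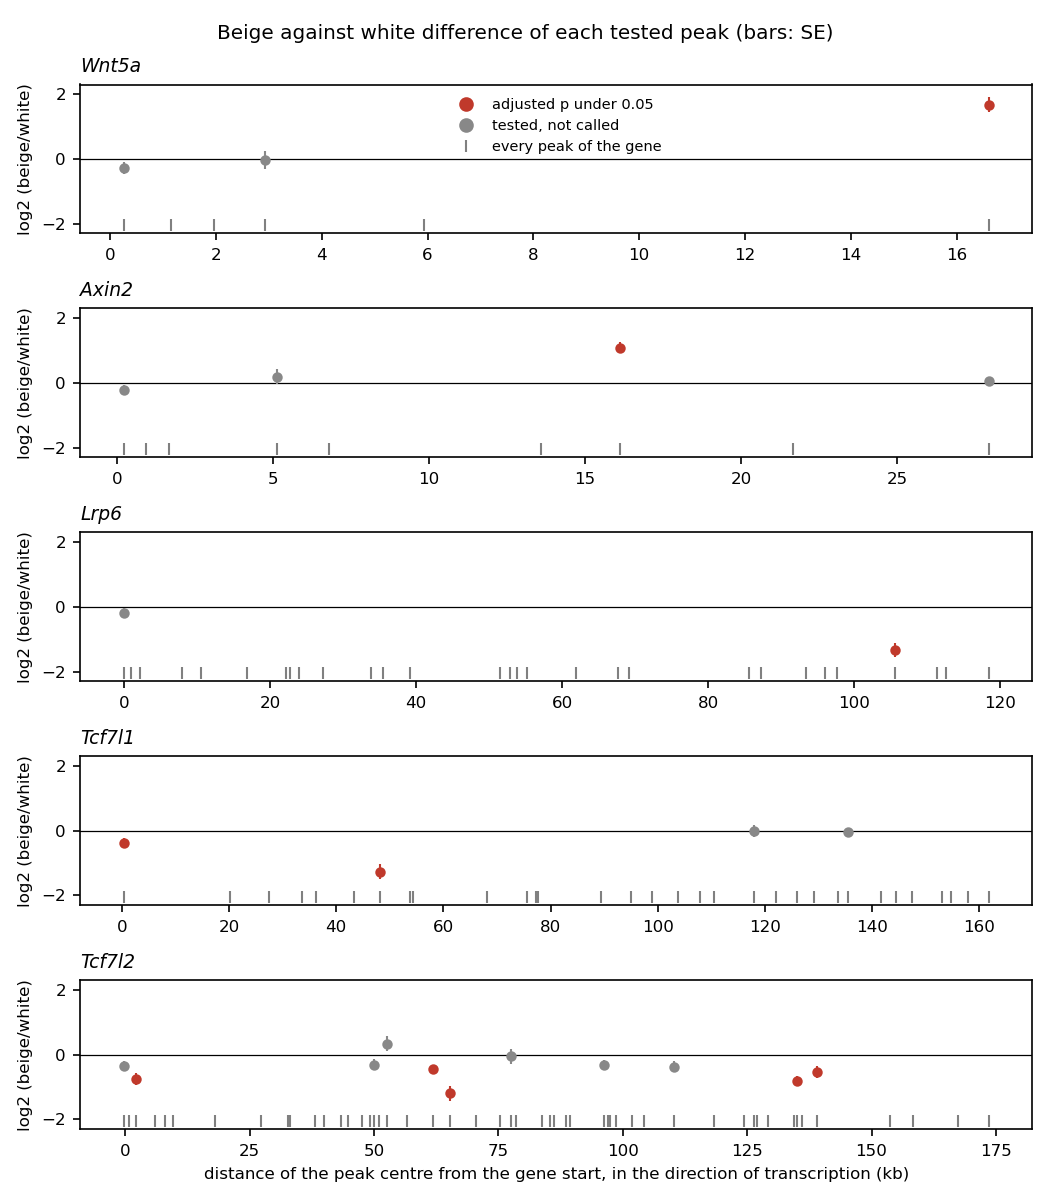
Log2 difference between beige and white nuclei (points, with SE) of each tested peak of 5 genes against the distance of the peak centre from the gene start in kilobases, and every peak of the gene as a grey tick. The red points are the called peaks: 1 far from the start in Wnt5a, Axin2 and Lrp6, 2 in Tcf7l1 and 5 spread along Tcf7l2.

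The clusters annotated as progenitors (APC1 plus APC2) were set against adipocytes (white plus beige) because Wnt signals are studied as regulators of the step between them. APC2 held 466 CPM of the summed smooth muscle markers against 135 in APC1, and 231 CPM of the APC1 markers against 997. The name progenitors is used here as the annotation gives it. Progenitors were more open at Fzd2, Wnt6 and Tcf7l1 and less open at Wnt5b, Fzd4, Axin2 and Tcf7l2. Of the 43 genes, 18 passed the filter, 5 were higher and 6 lower in progenitors (61.1%), where 65.8% of 9637 genes passed, 33.4% higher and 32.4% lower. Fzd2, a Frizzled receptor, was at 82.7 ± 30.6 CPM in progenitors and 32.2 ± 9.99 in adipocytes (n = 21 each, log2 difference 1.13, SE 0.13, adjusted p = 8.86e-13, edgeR), higher in 21 of 21 mice. The ligand Wnt6 was at 53.8 ± 25.8 against 22.9 ± 8.73 CPM (0.94, SE 0.17, adjusted p = 8.63e-07). Tcf7l1 was at 338 ± 60.6 against 186 ± 27.5 CPM (0.73, SE 0.07, adjusted p = 1.11e-15), higher in 20 of 21 mice.

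Lower in progenitors, Wnt5b was at 147 ± 46.1 against 251 ± 31.1 CPM (-0.83, SE 0.08, adjusted p = 1.18e-14), and adipocytes were the higher in 21 of 21 mice. Fzd4 was at 109 ± 31.9 against 163 ± 18.9 CPM (-0.67, SE 0.09), Axin2 at 114 ± 33.6 against 143 ± 17.3 (-0.57, SE 0.10) and Tcf7l2 at 444 ± 91.1 against 561 ± 55.3 (-0.41, SE 0.06). The co-receptors Lrp5 (-0.31, SE 0.09) and Lrp6 (-0.23, SE 0.09) were also lower. These values pool APC1 and APC2. Over all mice Lrp6 was at 246 CPM in APC1 against 216 in adipocytes, and Lrp5 at 179 in APC2 against 173. Fzd4 also differed between APC1 and APC2, as given below. Over all nuclei, 80.0% of the Fzd4 counts lay in peaks shared with Tmem135, and 32.9% of the Wnt5b counts in a peak shared with Fbxl14. The clusters were not each tested against adipocytes. Summed over peaks near the gene start alone, Tcf7l2 was higher in progenitors (0.33, adjusted p = 0.00461) and Axin2 did not pass (-0.07, adjusted p = 0.702). Axin1 (0.34, adjusted p = 0.0457) and Fzd7 (0.25, adjusted p = 0.0304) passed narrowly: with the mouse as a block their adjusted p was 0.0539 and 0.0644, and they lost the call in 15 and 8 of the 21 fits that each left out 1 mouse. The Lrp6 call was lost without day3C mouse 3 (adjusted p = 0.0647). Summed markers of other cell types also differed: over mice, the 5 T cell markers ran from 74.3 to 454 CPM in progenitors and 40.9 to 101 in adipocytes, the 5 VEC markers from 213 to 535 and 81.9 to 180.3, and the B cell markers from 66.4 to 352 and 89.9 to 215. Up to 3 of the T cell markers were at 0 in a library of either kind, as were up to 3 VEC markers in progenitors and 4 in adipocytes, and up to 6 B cell markers in either. Of the VEC list, Tek was highest in APC1 and Pecam1 in CD4 T cells, so this sum does not mark endothelial cells alone. The part of these markers in the gene differences was not tested.

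APC1 and APC2 were compared on 1687 genes only, because each has few nuclei a mouse, and 6 of the 43 genes could be tested. The receptors Fzd4 (161 ± 73.5 CPM in APC1, n = 20, against 69.0 ± 40.7 in APC2, n = 19) and Lrp6 (247 ± 100.0 against 144 ± 46.9) were higher in APC1, by 1.18 (SE 0.22, adjusted p = 3.6e-07) and 0.79 (SE 0.15, adjusted p = 9.36e-07). The co-receptor Lrp5 was lower, at 134 ± 66.9 against 178 ± 65.9 CPM (-0.57, SE 0.17, adjusted p = 0.0023). Wnt5b was higher by 0.46 (SE 0.17, adjusted p = 0.0136), which the mouse as a block took to an adjusted p of 0.115. Without day3C mouse 1 the adjusted p of Lrp5 was 0.0662. The summed T cell markers stood at 118 CPM in APC1 and 307 in APC2 and the smooth muscle markers at 135 and 466, and their part was not tested. Together 4 of 6 passed (66.7%), 3 higher and 1 lower, against 62.7% of all genes tested, 31.8% higher and 30.8% lower. Lrp5 and Lrp6, which act as alternative co-receptors, differed in opposite directions. Over all nuclei, 80.0% of the Fzd4 counts lay in 2 peaks shared with Tmem135, and 32.9% of the Wnt5b counts in 1 shared with Fbxl14. These differences therefore cannot be assigned to Fzd4 and Wnt5b alone.

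**Figure D4:**
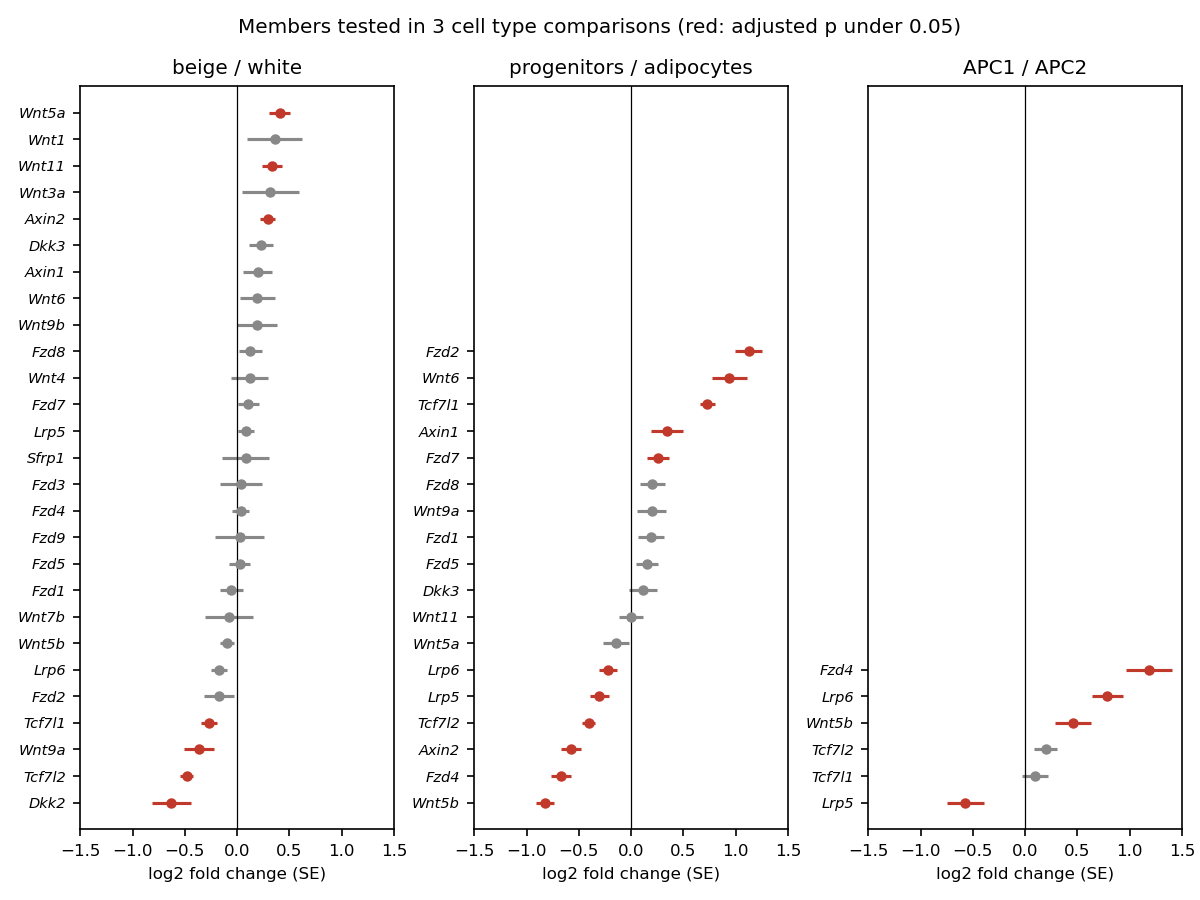
Log2 fold change with SE of every listed gene that passed the filter, in 3 panels: beige against white (27 genes), progenitors against adipocytes (18) and APC1 against APC2 (6), with red for an adjusted p under 0.05. Tcf7l2 lies to the left in the first 2 panels, and Fzd2 and Fzd4 lie farthest to the right in the progenitor and APC1 panels, respectively.

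After cold or CL, adipocyte accessibility changed at few of these genes. Over the 6 comparisons with day0RT, 33 of the 43 genes were tested in each, and the calls were Tcf7l2 in day1CL and Fzd1 in day3CL and day7CL, all of them lower. None was called in the cold groups, where 2, 1 and 1 had an unadjusted p under 0.05 on days 1, 3 and 7. Over all 14429 genes the shares called were 0.34%, 1.68% and 5.08% in day1C, day3C and day7C and 2.61%, 4.77% and 7.81% in day1CL, day3CL and day7CL, against 3.03% (1 of 33) on the list in each CL group. The shares called as lower were 1.46%, 1.69% and 3.17% in the CL groups. For the mean of the 6 treated groups 4.17% of genes passed and none of the 33, with 4 at an unadjusted p under 0.05.

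Tcf7l2 was at 617, 636 and 644 CPM in the 3 day0RT mice and at 491, 499.9 and 483 in the day1CL mice, without overlap (-0.39, SE 0.11, adjusted p = 0.0383, edgeR). In the other treated groups its differences ran from -0.10 to -0.23 and did not pass, and all 18 treated mice were below the day0RT mean of 632 CPM. The day1CL mice had 29, 68 and 654 adipocyte nuclei, and without the mouse with 654 the adjusted p was 0.501. The summed B cell markers in adipocyte nuclei were 89.9 to 121 CPM in day1CL and 129.9 to 215 in day0RT, and their part was not tested.

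Fzd1, a Frizzled receptor whose only peak lies at its start, was at 65.4, 77.3 and 71.6 CPM in the day0RT mice, 32.8, 49.8 and 47.0 in day3CL and 46.3, 47.8 and 56.3 in day7CL. Both CL groups lay below every day0RT mouse (-0.57, SE 0.17, adjusted p = 0.0326, and -0.54, SE 0.17, adjusted p = 0.0329). The 5 smooth muscle markers, none of them at 0, summed to 211 to 227 CPM in the day3CL adipocytes, 198 to 207 in day7CL and 164 to 172 in day0RT. The APC2 markers summed to 214 to 234, 183 to 208 and 153 to 211. Acta2 and Myh11 are on both lists, and Cnn1 of the smooth muscle list was highest in beige adipocytes among the cell types. The part of these markers was not tested. DESeq2 gave Fzd1 an adjusted p of 0.131 in day3CL and 0.208 in day7CL. The edgeR fit of peaks near the gene start keeps the same Fzd1 peak. There the differences were -0.44 (adjusted p = 0.207) in day3CL and -0.40 (adjusted p = 0.26) in day7CL. In day1C, day3C, day7C and day1CL the differences were -0.13, -0.35, -0.28 and -0.32 and did not pass. The calls rest on few mice: without day0RT mouse 1, 2 or 3 the number of calls over the 6 comparisons was 1, 0 or 0 in place of 3, and without day7CL mouse 1 the adjusted p of Fzd1 in day7CL was 0.29.

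Among the genes that did not pass, the co-receptor Lrp6 was at 174, 155 and 198 CPM at day 0, and 17 of the 18 treated mice were above the day0RT mean (0.28 for the mean of the treated groups, SE 0.10, adjusted p = 0.110). Fzd2 was below the day0RT mean in all 18 treated mice (-0.46, SE 0.18, adjusted p = 0.154). Such counts set every treated mouse against the mean of the same day0RT mice, and they were not taken over all genes. Axin2 and Wnt5a, which differed between beige and white nuclei, had differences from day0RT of -0.22 to -0.06 and -0.13 to 0.21 over the 6 groups. Beige nuclei were 7.69 to 12.2% of adipocyte nuclei in the day0RT mice, 26.1 to 32.5% in day7C and 14.5 to 23.5% in day7CL, and with white nuclei alone the same 3 calls were made.

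**Figure D5:**
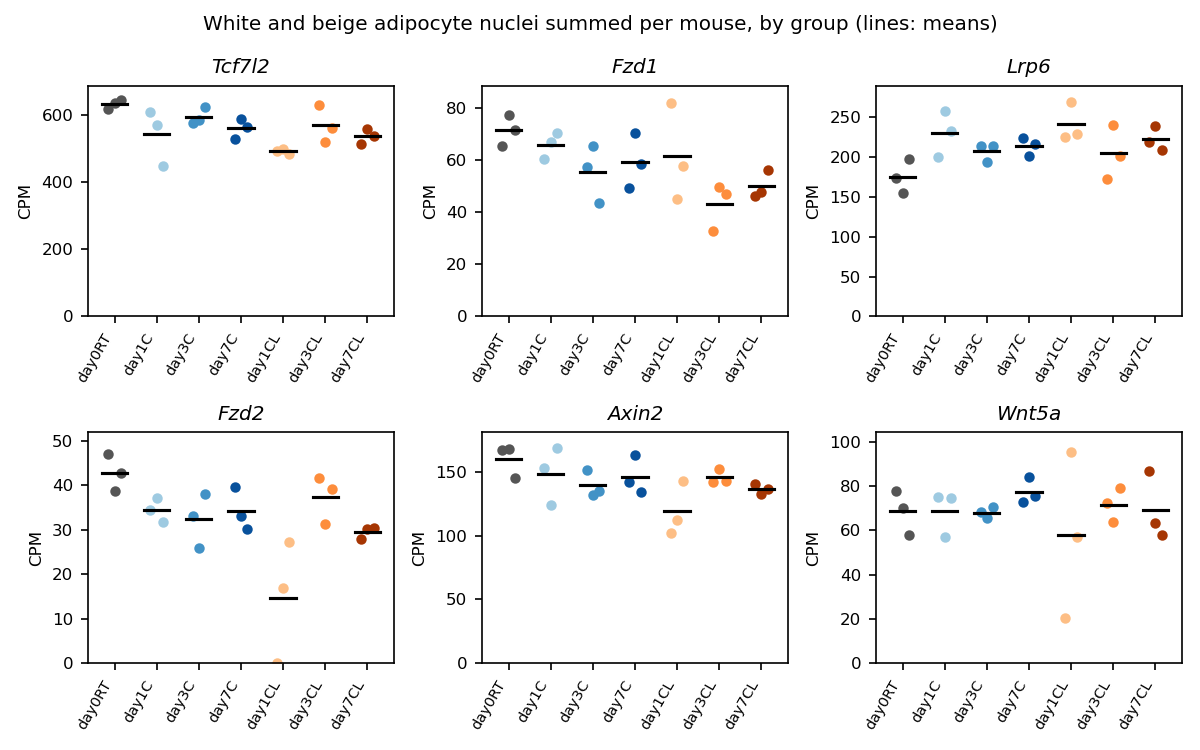
CPM in white plus beige adipocyte nuclei of each mouse (points) and group means (lines) for 6 genes: those called (Tcf7l2, Fzd1), 2 with 17 or 18 of 18 treated mice on the same side of day0RT (Lrp6, Fzd2) and 2 that differed between beige and white nuclei (Axin2, Wnt5a). The day0RT points of Tcf7l2 lie above all day1CL points, and those of Fzd1 above all day3CL and day7CL points.

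CL and cold were compared on the same day in the same fit, and no gene of the list passed on day 1, 3 or 7 (2, 1 and 1 of 33 at an unadjusted p under 0.05), where 0.922%, 1.46% and 0.111% of all genes did. DESeq2 called none either, with 44 of 99 adjusted values not given. The nearest was the ligand Wnt4 on day 3, at 39.4, 28.8 and 26.3 CPM in day3CL and 19.4, 12.2 and 20.1 in day3C (0.67, SE 0.20, adjusted p = 0.0609). None of the 100 tested peaks of the list passed between the treated groups and day0RT in adipocytes (11 at an unadjusted p under 0.05, and none by DESeq2), against 2.63% of 47835 peaks. The Wnt5a and Axin2 intron peaks were among them, at 7.60 ± 4.03 CPM in treated (n = 18) and 5.78 ± 3.74 in day0RT adipocytes (n = 3), and at 14.4 ± 5.03 and 11.2 ± 8.20.

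In progenitors, with 11 genes of the list tested, none passed between treated and day0RT mice and none had an unadjusted p under 0.05. No gene of 4261 passed there (0%, with 217 at an unadjusted p under 0.05; DESeq2 also called 0). In B cells 13 genes of the list were tested and none passed, against 0.739% of 11502 genes. Wnt10a was the nearest, at 55.0 ± 12.4 CPM in 18 treated mice and 72.1 ± 13.6 in 3 day0RT mice, lower than the day0RT mean in 18 of 18 (-0.47, SE 0.14, adjusted p = 0.0715). Fzd4, Wnt10b and Axin1 also had an unadjusted p under 0.05 there, with adjusted p from 0.252 to 0.339.

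A further 60 genes of the pathway were examined (R-spondins, their receptors, co-receptors, beta-catenin partners and planar polarity genes). Between beige and white nuclei 46 were tested, 3 were higher and 9 lower (26.1%, against 28.8% of all genes tested). Lgr6, a receptor for R-spondins, which amplify Wnt signals, was at 142 ± 47.8 CPM in beige and 63.9 ± 13.5 in white nuclei (1.17, SE 0.09) and higher in 19 of 19 mice. Znrf3, a ligase that removes Frizzled receptors, was higher by 0.47 (SE 0.07), while the intracellular inhibitor Nkd1 (-0.76, SE 0.09), the planar polarity cadherin Celsr2 (-0.67, SE 0.12) and the TCF-family factor Lef1 (-0.54, SE 0.15) were lower. Between progenitors and adipocytes 32 of 39 passed (82.1%, against 65.8% of all genes tested), 20 higher and 12 lower, led by the Wnt5a receptor Ror1 (410 ± 91.5 against 65.8 ± 13.4 CPM, 2.55, SE 0.08), Dact1 (2.01), Vangl2 (1.60), Ror2 (1.51) and, lower in progenitors, the proteoglycan Gpc4 (-1.58). Between APC1 and APC2, Nkd1 (-1.05), Bcl9 (-0.94), Prickle2 (-0.82) and Ctbp2 (-0.43) were lower and Vangl1 (0.68) higher in APC1, 5 of 12 tested (41.7%, against 62.7% of all genes tested).

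In adipocytes Celsr2 was lower in 5 of the 6 treated groups, at 119 ± 0.415 CPM in day0RT (n = 3) and 68.7 ± 13.4 in the treated mice (n = 18), all of them below the day0RT mice (-0.86, SE 0.13, for the mean of the treated groups). The differences were -0.51 and -0.90 in day3C and day7C and -1.35, -0.93 and -0.83 in day1CL, day3CL and day7CL. The corepressor Tle3, which binds TCF factors, was at 305 ± 36.8 CPM in day0RT and 226 ± 30.5 in the treated mice (-0.39, SE 0.09) and passed in day3C, day7C, day1CL and day7CL. The secreted inhibitor Wif1 (-0.72, SE 0.20) and Lef1 (-0.59, SE 0.17) were also lower for the mean of the treated groups, which makes 4 of 55 tested (7.27%, against 4.17% of all genes tested). On day 7 the R-spondin gene Rspo2 was higher in cold (1.24, SE 0.33) and CL (1.31, SE 0.31), from 10.5 ± 4.98 CPM at day 0 to 28.0 ± 4.92 and 32.2 ± 4.35, and Lgr6 was higher in cold (0.86, SE 0.16) and CL (0.52, SE 0.16). The ligase gene Rnf43 (1.29) and Gsk3b (0.56), a kinase of the destruction complex, passed in day7CL, Gpc4 (0.60) in day3C, and Wls (0.71), needed for Wnt secretion, in day1CL. In day1C, day3C and day7C 0, 4 and 5 of 55 passed (0%, 7.27% and 9.09%, against 0.34%, 1.68% and 5.08% of all genes). In day1CL, day3CL and day7CL 3, 2 and 8 passed (5.45%, 3.64% and 14.5%, against 2.61%, 4.77% and 7.81%). The alternative fits and those leaving out a mouse were not examined for these further genes. The day1CL mice had 29, 68 and 654 adipocyte nuclei. The cold and CL comparisons share the day0RT mice. All these sums pool white and beige nuclei. Lgr6 was also higher in beige than in white nuclei, and Celsr2 and Lef1 were lower. Beige nuclei were 7.69 to 12.2% of adipocyte nuclei in day0RT, 26.1 to 32.5% in day7C and 14.5 to 23.5% in day7CL. The part of this share in the changes of these further genes was not tested.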

How the data were processed

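Nuclei of the inguinal fat of 21 mice were profiled by snATAC-seq in 4 sequencing lanes, which are the samples of the labels; the mouse, group and cell type of each nucleus were taken from the deposited annotation. The authors aligned reads with Bowtie2 to mm10, handled them with SAMtools, removed duplicates, mitochondrial reads and doublets, called peaks with MACS2 and clustered nuclei with Signac. The deposited matrix holds counts that are 0 or 1 per peak and nucleus (65588856 ones), so that a sum counts nuclei with reads in a peak and not fragments.

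Peaks were assigned to gene bodies plus 2000 bases upstream (GENCODE M21), a peak on several genes counting for each, and summed per mouse and cell type. CPM are per 1000000 gene counts, or peak counts, of each sum and are not scaled to the number or length of the peaks of a gene. Sums of at least 10 nuclei were tested with edgeR 4.0.16 (R 4.3.3, quasi-likelihood, TMM, filterByExpr with a minimum count of 10, Benjamini-Hochberg over all features tested, threshold 0.05). Cell types of the same mouse were compared, so that mice pair these sums; the fit with the mouse as a block was an alternative. Other alternatives were DESeq2 1.42.0, its size factors, no filter, peaks near the gene start only, at least 30 nuclei, white nuclei only, the compared groups only, and leaving out each mouse; for peaks the last was chosen after seeing the data. Tests were tried on simulated data. Intervals are exact Poisson, 95%, and cover counting error only.

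The genes and lists were chosen with earlier results of these data known. Named are all genes that passed (or the 6 largest changes each way), those reaching 50 CPM in a cell type, the 5 largest peak changes each way and up to 5 other pathway genes per comparison; a few others were chosen after their values were seen. Nothing states how mice were allotted to lanes, so lane effects were not analysed here.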

Additional observations from a re-analysis of the deposited data

Results flagged for a closer look

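The difference in the summed level of Axin2 between beige and white nuclei of the same mouse had opposite signs in different groups. Beige was higher in all 3 mice of day3C (by 16.7 to 27.3 CPM), day3CL (21.6 to 75.0), day7C (59.2 to 76.0) and day7CL (27.9 to 82.9), whereas in day1C all 3 mice had a negative difference (-32.95 to -5.85 CPM). The 1 day1CL mouse compared (-42.5) and 1 of 3 day0RT mice (-13.0) also had a negative difference. The difference between these groups was not tested. This pattern was found by searching all called genes and peaks for 1 group with all 3 mice higher and another with all 3 lower. With 3 mice a group, a shared sign can arise by chance. The Axin2 intron peak that passed did not share the negative sign in day1C. It was higher in beige nuclei in all 3 day1C mice, by 13.5 to 40.4 CPM of peak counts. In day3C, day3CL, day7C and day7CL this peak was also higher in all 3 mice. It was lower in beige nuclei in 1 of 3 day0RT mice and in the 1 day1CL mouse compared (-0.84). Beige nuclei numbered 21 to 32 a mouse in day1C, 18 to 105 in day3C, 34 to 86 in day3CL, 85 to 98 in day7C and 46 to 107 in day7CL.

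The Tcf7l1 peak at its gene start (chr6:72787990-72789812) was higher in beige than in white nuclei in all 3 day3CL mice (by 8.23 to 27.3 CPM) and lower in all 3 mice of day3C (-21.8 to -3.11) and day7C (-28.3 to -3.23). This difference came from the same search and was not tested either.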

How the results depend on the processing

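With peaks near the gene start only, calls fell from 7 to 1 between beige and white nuclei, from 11 to 4 between progenitors and adipocytes, from 4 to 1 between APC1 and APC2 (59 genes could be tested) and from 3 to 0 in treated adipocytes, and Axin2 between beige and white nuclei (-0.12) and Tcf7l2 between progenitors and adipocytes (0.33) changed sign. Over all genes the counts were then 1099 (3673 with all peaks), 2346 (6342), 10 (1057) and 445 (3216). Without the filter, 23 of 41 genes passed between progenitors and adipocytes (55.2% of all genes), 13 of 41 between APC1 and APC2 (3320 of all genes, 19.5%) and 79 of 277 peaks between beige and white nuclei (44231 of all peaks, 23.3%, and 6752 with the filter), where the median of all peaks moved to -0.498. In treated adipocytes DESeq2 called 1 gene of the list (917 of all; 138 of 198 adjusted values were not given), and fits on the compared groups alone called 1. For CL against cold, 359 calls over all genes became 28 with DESeq2 and 101 near the start, and none of the list; for B cells 85 became 13 and 12, and for peaks of treated adipocytes 1257 became 57 with DESeq2 and 323 without the filter (all-peak median 0.17).

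With the mouse as a block, 9 of 34 genes of the list passed between beige and white nuclei, 3 higher and 6 lower (27.1% of all genes). They included the 7 of the main fit. Between progenitors and adipocytes 12 of 21 passed, 6 higher and 6 lower (60.1% of all genes), and 9 were shared with the main fit. In the same block fits 27 peaks passed between beige and white nuclei (15601 of all, median -0.184) and 1588 of all genes between APC1 and APC2. In adipocyte sums, same-numbered mice of different groups correlated at -0.123 to 0.116 (median 0.0017) and other mice at -0.0619 to 0.11 (median 0.000307). Barcode sequences found in more than 1 mouse joined mice of the same number, and the paper states that its experimental batches were run independently. These correlations cannot tell whether a batch is present. Whether batches follow the replicate numbers is not stated. A replicate block over these numbers left 2 calls in treated adipocytes and 0 for CL against cold.

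Leaving out each mouse gave 6 to 8 calls between beige and white nuclei, 10 to 12 between progenitors and adipocytes, 3 to 5 between APC1 and APC2, 0 to 3 in treated adipocytes, 0 for CL against cold and for treated progenitors and B cells, 7 to 20 peaks between beige and white nuclei and 0 to 1 peaks in treated adipocytes. The cause of these changes was not tested. Beige, APC1 and APC2 sums held few nuclei, which limits what could be tested there.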
